A study of Homo sapiens with 24 samples.

Results

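The transcriptomes of β-CATENIN-deficient HCT116 and SW480 cells were set against each other, to list the differences between these colorectal cancer (CRC) cell lines that stand when neither makes an intact *CTNNB1* transcript. The comparison took the 8 KO libraries of both lines, of 24 libraries in the series. HCT116 and SW480 are established lines. HCT116 cells carry a gain-of-function mutation in *CTNNB1* and SW480 cells an inactivating mutation in *APC*, so both lines entered the experiment with an active WNT/β-CATENIN pathway. The 4 HCT116 KO libraries came from clones 44 and 47 and the 4 SW480 KO libraries from clones 17 and 21, each clone being sequenced in rounds A and B. Every KO clone grew from a single cell, with exon 7 of *CTNNB1* deleted on both alleles through CRISPR/Cas9, which shifts the reading frame. The WT clones used for reference (HCT116 clones 4 and 6, SW480 clones 4 and 5, also sequenced in both rounds) had been through the same editing and cloning procedure without losing the gene. With 2 clones per group, the p-values measure the spread between these 4 libraries and not the spread between many independent knock-outs.

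β-CATENIN has a dual role in epithelial cells. At the membrane it ties E-cadherin to the actin skeleton, and in the nucleus it activates the TCF/LEF factors when the APC-containing destruction complex fails to degrade it. CRC lines differ besides in how far they have kept the epithelial programme, which is upheld by factors such as GRHL2, OVOL1 and ESRP1, and which is repressed by the ZEB and SNAI factors during epithelial-mesenchymal transition (EMT).

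*CTNNB1* (ENSG00000168036, GRCh37 chr3:41236232-41301587, plus strand) itself was residual in each KO library. Normalized read counts, which are reads per gene divided by the library's size factor, were 187, 222, 207 and 255 in HCT116 KO 44A, 44B, 47A and 47B, in which order the HCT116 values are given throughout. They were 839, 840.4, 1106 and 1312 in SW480 KO 17A, 17B, 21A and 21B, also the order used throughout. The WT means were 11918 in HCT116 and 46967 in SW480. Every KO library was therefore below the WT mean of its own line, and the SW480 KO libraries held more of the residual transcript, by a log2 fold change (HCT116 minus SW480) of −2.21 (SE 0.17, adjusted p = 1.13e-06, limma). The line difference in WT clones was −1.98, and the KO and WT differences were not separable (−0.23, adjusted p = 0.399, limma interaction).

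Depth did not set the lines apart, as the 8 libraries held 25012505 to 29028157 reads in genes. HCT116 KO 47A stood apart in another way. It had 35449 genes above 0, compared with 20256 to 24944 in the other 23 libraries. Of 26018 genes at 0 in the other 7 KO libraries, 8588 were above 0 in 47A, with a median of 2 and at most 34 reads, which made up 0.0784% of its reads. Values of a few counts in 47A alone are thus to be read with this in mind, and counts that rest on genes near 0 are given with and without it.

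Both lines expressed the epithelial markers *EPCAM*, *KRT8* and *KRT18* in every KO library, while the intestinal markers *VIL1*, *CDH17* and *LGALS4* did not exceed 15.0 counts in any. The intestinal marker *CDX2* was present in every KO library, at 421 to 478 counts in HCT116 KO and 52.7 to 165 in SW480 KO. *CDH1* ran from 2805 to 3674 counts in HCT116 KO and from 28.8 to 55.5 in SW480 KO. The label of SW480 as an epithelial line thus rests on keratins, and on *EPCAM* and *CDX2* at lower levels than in HCT116 KO. Markers of other cells that a culture could hold were low. The 6 fibroblast genes summed to 324 to 386 counts in HCT116 KO, nearly all *COL1A1*, and to 135 to 202 in SW480 KO. The 7 blood genes summed to 2.83 to 24.6 and to 158 to 221, and the 3 endothelial genes to 4.71 to 36.4 and to 118 to 234, and the SW480 sums were almost wholly *CD14* and *VWF*. The defining blood gene *PTPRC* did not exceed 4.28 counts in any KO library and *CDH5*, which defines endothelium, also did not exceed 4.28. Of the 4 tested members of the list of other cell types, *COL1A1* was higher in HCT116 KO (333 ± 18.2 against 132 ± 12.3) and *CD14*, *VWF* and *LYZ* in SW480 KO (5.55 ± 4.43 against 172 ± 28.4 for *CD14*), and the part of other cells in the line differences was not tested. In bulk RNA, fewer cells of a type and less RNA per cell cannot be told apart.

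Of 16491 genes with at least 10 normalized counts in at least 4 of the 8 KO libraries, 6854 (41.6%) were called different between the lines (limma, adjusted p under 0.05 and absolute log2 fold change over 1). HCT116 KO cells had the higher level for 2825 genes (17.1% of those tested) and SW480 KO cells for 4029 (24.4%). The split depended on scaling, since SW480 took 58.8% of the calls with the deposited size factors and 48.4% after quantile normalization, which moved the median difference over the tested genes from −0.08 to 0.10 (log2). Differences were often far above the threshold. HCT116 KO cells were higher by over 4 on the log2 scale for 466 genes and by over 8 for 74, and SW480 KO cells for 945 and 130. The 4 libraries of one line did not overlap with the 4 of the other for 10805 genes (65.5%). By biotype, 58.4% of 1576 tested lncRNAs were called (273 higher in HCT116, 648 in SW480), compared with 39.8% of 13213 protein-coding genes (2163 and 3096) and 36.7% of 1418 pseudogenes (330 and 190). The filter lets a gene enter through 1 line alone, which favours a call for genes of low level. These shares are thus not read as a trait of a biotype.

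Clones of one line differed far less. Line accounted for 89.3% of the sum of squares over tested genes, clone within line for 6.14% and round within clone for 4.53%. The median absolute log2 difference between a pair of libraries was 0.11 to 0.27 for rounds of a clone, 0.24 to 0.35 for clones of a line and 0.82 to 0.88 for libraries of different lines. Under the same thresholds, 618 genes (3.75%) separated KO 44 from KO 47, of which 305 (1.85%) were higher in KO 44 and 313 (1.9%) in KO 47. KO 17 and KO 21 were separated by 385 genes (2.33%), of which 164 (0.994%) were higher in KO 17 and 221 (1.34%) in KO 21. Of the genes called between the lines, 6.30% also separated the HCT116 clones and 3.92% the SW480 clones. For 94 and 66 of them the clone difference exceeded the line difference, so a value for one clone does not stand for the line there. The HT29 KO clones, from the remaining CRC line of the series, give a scale for these numbers. HCT116 KO cells differed from HT29 KO cells in 6113 of 17338 tested genes (35.3%) and SW480 KO cells in 7187 (41.5%). These comparisons share libraries with each other and with the one described here.

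**Figure D1:**
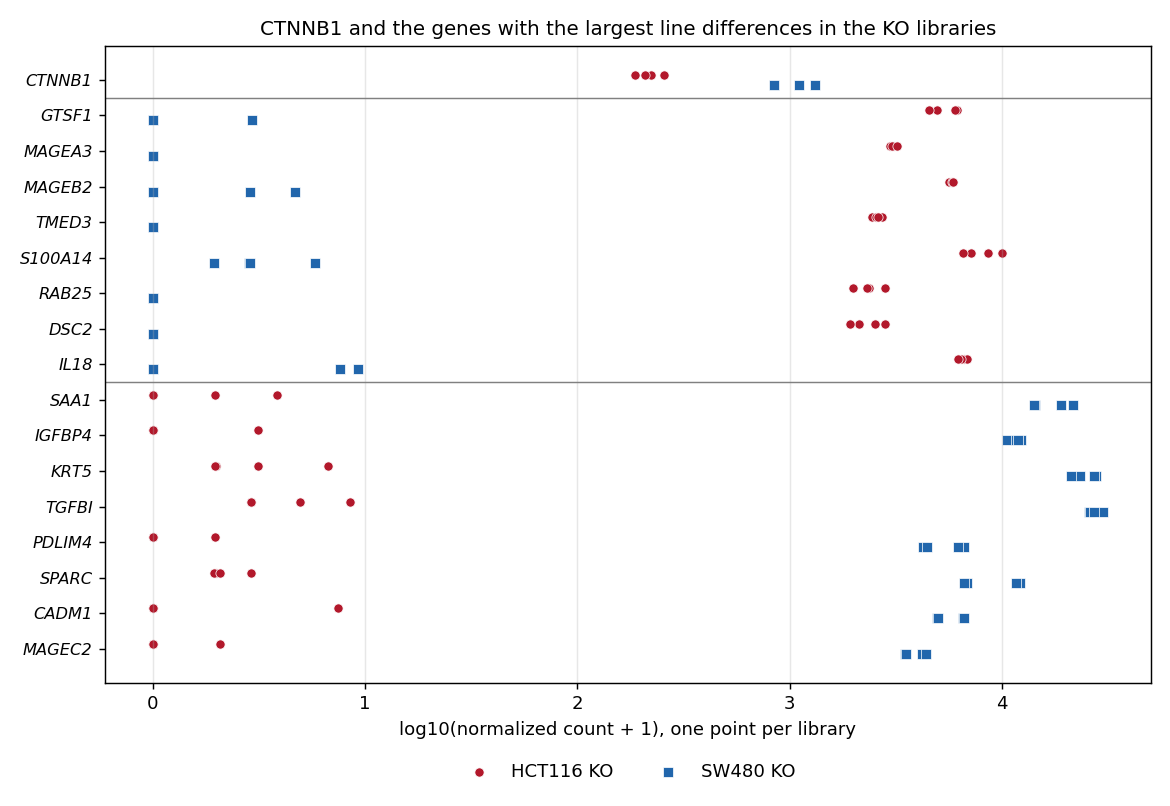
Normalized read counts of *CTNNB1* and of the 8 protein-coding genes with the largest log2 fold change in each direction. The x axis is log10(normalized count + 1), each point is 1 KO library (4 per line, points that coincide overlap), and the lines sit at opposite ends for all genes other than *CTNNB1*, whose libraries lie between 187 and 1312 counts.

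The 8 protein-coding genes with the largest difference in favour of HCT116 included the epithelial genes *DSC2*, *RAB25* and *S100A14*. *DSC2*, a desmosomal cadherin, had 2111, 2521, 1920.3 and 2801 counts in HCT116 KO and 0 in each SW480 KO library. *RAB25*, a small GTPase of apical recycling in epithelia, had 2350.2, 1991, 2802 and 2311 counts and again 0 in SW480. *S100A14*, a calcium-binding protein of epithelia, had 7148, 6549.6, 10050.2 and 8596 counts against 0.941, 1.83, 1.87 and 4.80. No library of one line came near the other line for these genes. With 3 reads per library as the floor, *DSC2* was at least 831-fold and *RAB25* at least 840.1-fold higher in HCT116 KO, and *S100A14* was 3425-fold higher (log2 fold change 11.33, SE 0.30, adjusted p = 1.53e-09, limma). An antisense gene overlaps *DSC2* and the libraries were not stranded, so reads of such pairs cannot be told apart.

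Proximal promoter sequences of these genes are shown because E-boxes of the form CAGGTG, or CACCTG on the other strand, are the letters that the ZEB and SNAI repressors are known to bind. The first promoter listed per symbol in RefSeq (GRCh38.p14) is printed from 250 bases before to 50 after the start, 5′ to 3′ on the gene's strand, with each E-box in capitals. The 5 epithelial genes are *S100A14* (chr1:153616276-153616575, minus), *RAB25* (chr1:156060910-156061209, plus), *DSC2* (chr18:31102372-31102671, minus), *AP1M2* (chr19:10587263-10587562, minus) and *DSG2* (chr18:31497927-31498226, plus). *IGFBP4* (chr17:40443200-40443499, plus) and *KRT5* (chr12:52520345-52520644, minus), among the genes with the largest difference in favour of SW480, follow as counterparts.
S100A14: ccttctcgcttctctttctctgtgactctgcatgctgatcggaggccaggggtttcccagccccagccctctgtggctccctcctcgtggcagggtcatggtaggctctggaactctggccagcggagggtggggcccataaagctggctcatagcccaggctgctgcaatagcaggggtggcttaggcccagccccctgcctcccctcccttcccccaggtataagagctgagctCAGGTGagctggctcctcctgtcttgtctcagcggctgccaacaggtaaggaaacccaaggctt
RAB25: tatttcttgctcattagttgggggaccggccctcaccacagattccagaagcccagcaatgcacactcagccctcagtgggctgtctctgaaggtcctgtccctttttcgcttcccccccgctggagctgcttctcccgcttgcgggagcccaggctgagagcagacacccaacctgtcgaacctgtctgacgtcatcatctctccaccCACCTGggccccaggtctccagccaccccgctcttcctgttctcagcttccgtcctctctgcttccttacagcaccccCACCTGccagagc
DSC2: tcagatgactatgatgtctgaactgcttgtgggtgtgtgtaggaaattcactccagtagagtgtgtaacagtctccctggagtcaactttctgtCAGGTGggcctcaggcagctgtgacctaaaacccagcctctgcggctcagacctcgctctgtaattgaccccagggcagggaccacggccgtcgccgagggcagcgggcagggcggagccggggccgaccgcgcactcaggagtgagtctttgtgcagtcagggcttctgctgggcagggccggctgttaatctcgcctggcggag
AP1M2: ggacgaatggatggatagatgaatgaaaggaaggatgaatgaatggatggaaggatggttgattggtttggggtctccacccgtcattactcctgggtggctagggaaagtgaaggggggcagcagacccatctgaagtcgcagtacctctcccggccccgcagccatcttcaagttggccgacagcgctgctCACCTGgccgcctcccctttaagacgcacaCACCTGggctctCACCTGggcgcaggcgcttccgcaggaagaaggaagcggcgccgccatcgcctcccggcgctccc
DSG2: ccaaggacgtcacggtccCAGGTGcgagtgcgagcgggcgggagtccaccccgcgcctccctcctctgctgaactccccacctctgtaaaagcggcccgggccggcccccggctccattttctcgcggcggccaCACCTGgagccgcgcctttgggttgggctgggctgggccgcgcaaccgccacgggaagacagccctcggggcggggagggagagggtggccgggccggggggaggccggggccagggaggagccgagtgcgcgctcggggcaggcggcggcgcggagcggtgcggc
IGFBP4: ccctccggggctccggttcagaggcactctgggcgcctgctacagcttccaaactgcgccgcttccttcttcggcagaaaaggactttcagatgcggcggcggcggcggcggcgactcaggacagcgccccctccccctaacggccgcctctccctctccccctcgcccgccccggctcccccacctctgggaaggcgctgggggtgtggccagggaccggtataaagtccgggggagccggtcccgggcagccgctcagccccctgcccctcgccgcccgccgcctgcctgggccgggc
KRT5: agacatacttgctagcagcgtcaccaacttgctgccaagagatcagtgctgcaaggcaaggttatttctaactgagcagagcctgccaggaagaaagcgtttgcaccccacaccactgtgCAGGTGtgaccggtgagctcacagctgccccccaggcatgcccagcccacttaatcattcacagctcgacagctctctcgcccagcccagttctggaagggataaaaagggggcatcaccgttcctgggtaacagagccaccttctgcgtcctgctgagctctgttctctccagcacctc

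Counted from the start, the E-box of *S100A14* lay at −14, those of *RAB25* at −41 and 37, that of *DSC2* at −156, those of *AP1M2* at −57, −27 and −15, and those of *DSG2* at −232 and −116. *IGFBP4* had none and *KRT5* had 1, at −130. These promoters were picked as examples with a match in most. Over the 11422 tested genes with a promoter in the table (69.3%), 19.0% held such an E-box on either strand, as did 20.6% of all 27305 promoters of this length. The share was 26.1% of genes higher in HCT116 KO, 35.1% (102 of 291) of those higher there by over 4 log2, 18.5% of genes higher in SW480 KO and 19.5% of those higher there by over 4 log2. Such an E-box was held by 13 of the 28 epithelial genes with a promoter in the table, 10 of 16 (62.5%) among those higher in HCT116 and 1 of 5 among those higher in SW480. *CDH1*, *EPCAM*, *ESRP1* and *GRHL2* were not among the 28. The AP-1 site TGACTCA, or TGAGTCA on the other strand, was found in 3.24% of the promoters of tested genes, in 4.12% of those over 4 log2 in favour of HCT116 and in 5.91% of those over 4 log2 in favour of SW480. Line-specific promoters were also poorer in CpG. A ratio of observed to expected CpG over 0.6 was found for 81.3% of tested genes, and for 61.5% and 53.4% of those over 4 log2 in favour of HCT116 and SW480. A match says only that these letters are in this window.

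The other 5 of these 8 genes were *GTSF1*, *MAGEA3*, *MAGEB2*, *TMED3* and *IL18*. *GTSF1* (GRCh37 chr12:54849734-54867386, minus strand), a germline factor of the piRNA pathway, had 4959.9, 4532, 6153 and 6019.6 counts in HCT116 KO and 0, 0, 0 and 1.92 in SW480 KO, which puts it at least 1925-fold higher. *MAGEA3* and *MAGEB2*, cancer-testis antigens on the X chromosome, reached means of 3075 ± 105 and 5757 ± 109 (SD, n = 4) with at most 3.67 counts in any SW480 KO library. *MAGEA3* shares much of its sequence with *MAGEA6*, so the count of each is uncertain. *TMED3*, a carrier protein of the secretory pathway, had 2587 ± 117 counts and 0 in SW480, which is at least 919-fold. *IL18*, an interleukin of the inflammasome route that is made in epithelia, had 6528 ± 287 counts against 6.58, 8.26, 0 and 0, a log2 fold change of 11.14 (adjusted p = 2.82e-07, limma), where the only trace was in SW480 KO 17.

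In favour of SW480, the 8 largest differences included matrix proteins and a secreted binding protein. *TGFBI* (GRCh37 chr5:135364677-135399507, plus strand), an extracellular adaptor protein induced by TGFβ, had 3.93, 1.88, 7.49 and 1.90 counts in HCT116 KO and 25746, 26063, 29927 and 27002 in SW480 KO. *SPARC*, a collagen-binding matrix protein, had 1.22 ± 0.456 against 6880.5, 6647, 12224 and 11701 counts. *IGFBP4*, a secreted binder of insulin-like growth factors, had 0, 0, 2.14 and 0 against 10570.5, 11614, 12281 and 11903. The SW480 libraries were higher by a factor of 7149 for *TGFBI*, and by at least 3163 for *SPARC* and at least 3916 for *IGFBP4*. *SPARC* differed between the SW480 clones as well, clone 21 holding more than clone 17 in both rounds.

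*KRT5* (GRCh37 chr12:52908359-52914314, minus strand), a keratin of basal and squamous epithelia, had 0.983, 5.65, 2.14 and 0.952 counts in HCT116 KO and 27637, 27223, 23333 and 21171 in SW480 KO (log2 fold change −13.01, SE 0.34, adjusted p = 1.53e-09, limma). *SAA1*, an acute-phase apolipoprotein with a near-identical neighbour in *SAA2*, had at most 2.83 counts against 17264 ± 3702. *PDLIM4*, an actin-associated protein, had at most 0.952 against 5393 ± 1213, but it overlaps *P4HA2* on the other strand. *CADM1*, a cell adhesion molecule of the immunoglobulin family, had 5776 ± 937 counts in SW480 KO and 0 in each HCT116 KO library other than 47A, with 6.42. *MAGEC2*, a further X-linked cancer-testis antigen, had 3902 ± 462 counts in SW480 KO and a single read in HCT116 KO. Each line thus held cancer-testis genes that the other lacked.

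Genes that one line did not express at all were counted by a floor of 3 reads in each of its 4 KO libraries with a mean of at least 100 counts in the other line. In HCT116 KO 168 genes were at this floor, of which 138 code for proteins, and in SW480 KO 97, of which 80 do. The first count rose to 304 when 47A was left out and the second stood at 96. The same rule, with a mean of at least 100 counts in the other line, was also met in WT clones for 91 of the 168 (54.2%) and 65 of the 97 (67.0%). The line at the floor in KO was above the floor in WT clones for 29 and 18 genes. These genes are on in one line and off in the other, so the pseudocount of 1 sets the fitted value and only a lower bound is given.

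Epithelial genes were mostly higher in HCT116 KO. Of 50 tested members of the list, 32 were called higher in HCT116 and 9 in SW480 (background 17.1% and 24.4%), with a median log2 fold change of 2.65, compared with −0.08 over all tested genes. Setting genes at the floor to their bound left the medians of the lists as they were, other than those of enterocyte and goblet genes (−4.74 to −4.35) and of markers of other cell types (−3.84 to −3.59). *CDH1* (GRCh37 chr16:68771195-68869440, plus strand), which encodes E-cadherin, had 3278, 3534, 2805 and 3674 counts in HCT116 KO and 55.5, 45.9, 45.8 and 28.8 in SW480 KO, which do not overlap, at a log2 fold change of 6.24 (SE 0.19, adjusted p = 2.82e-09, limma). *EPCAM*, an epithelial adhesion molecule, had 18476 ± 805 against 818 ± 175 counts, a 22.6-fold difference. *ESRP1*, a splicing factor of epithelial isoforms, had 6062, 5934, 5285 and 5713 against 21.6, 42.2, 35.5 and 16.3, a 199-fold difference. The transcription factors *GRHL2* (949.9 ± 167 against 0.930 ± 1.32) and *OVOL1* (222 ± 58.6 against 0) were at or close to 0 in SW480 KO. So were *AP1M2*, a sorting adaptor of polarized epithelia (2762 ± 181 against 1.41 ± 1.20), and the tight junction gene *MARVELD3*, with 779.8 against 4.94 on average. *DSG2*, the desmosomal partner of *DSC2*, differed among SW480 clones, with 12.2 and 11.9 counts in clone 17 and 358 and 333 in clone 21, against 8813 or more in each HCT116 KO library. These examples beyond *CDH1*, *EPCAM* and *ESRP1* were chosen after their values were seen.

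The exceptions included a claudin, an ETS factor and keratins. *CLDN1*, a tight junction claudin, had 5.90, 0.942, 3.21 and 0.952 counts in HCT116 KO and 1282, 1367, 963 and 1035 in SW480 KO (log2 fold change −8.47, adjusted p = 3.92e-08, limma). *EHF*, an epithelial ETS factor, followed with −6.71. *KRT23* and *KRT80* had log2 fold changes of −5.70 and −2.88, and *KRT18* one of −1.07, while *KRT8* had similar means of 81995 and 92914 counts, with overlapping libraries and a difference of −0.19 (adjusted p = 0.132, limma). The simple-epithelial keratin pair was thus retained in both lines.

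**Figure D2:**
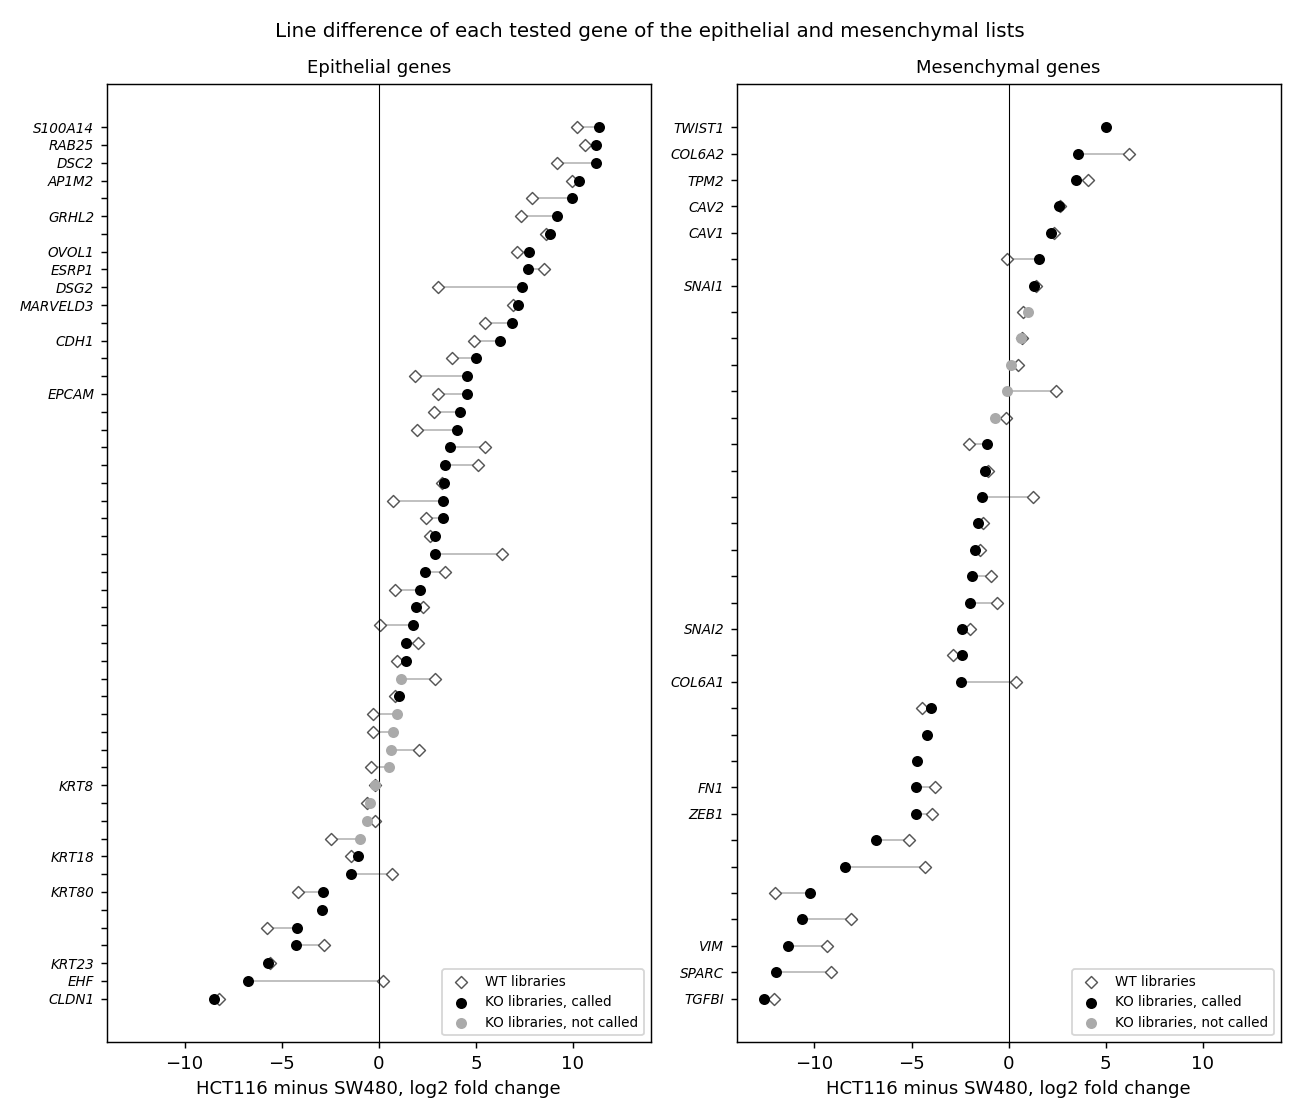
Log2 fold change (HCT116 minus SW480, log2 of normalized count + 1) of each tested member of the epithelial and mesenchymal lists. Named rows are members described in the text. Circles are KO clones, black where called and grey where not, and diamonds are WT clones. Epithelial members lie mostly to the right (32 of 50 called higher in HCT116) and mesenchymal members mostly to the left (22 of 34 called higher in SW480).

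Mesenchymal genes were the reverse. Of 34 tested members, 22 were called higher in SW480 KO and 7 in HCT116 KO (background 24.4% and 17.1%), at a median of −1.82. *VIM* (GRCh37 chr10:17270240-17279592, plus strand), the intermediate filament of mesenchymal cells, had 9.83, 4.71, 20.3 and 7.61 counts in HCT116 KO and 25749, 29059, 27013 and 25328 in SW480 KO, a 2522-fold difference (log2 fold change −11.34, SE 0.32, adjusted p = 1.75e-09, limma). *ZEB1*, the EMT repressor, had 51.1, 55.6, 35.3 and 66.6 against 1619, 1540.4, 1191 and 1415 (−4.79, adjusted p = 1.74e-08, limma). Neither gene's libraries overlapped. *FN1*, fibronectin, had 277 ± 60.5 against 7385 ± 410.2 counts. The EMT factor *SNAI2* was higher in SW480 (−2.39). The 7 members that were higher in HCT116 KO included *SNAI1* (1.31), *TWIST1* (35.6 ± 20.4 counts against 0), the caveolae genes *CAV1* (2.16) and *CAV2* (2.61), the tropomyosin *TPM2* (3.45) and the collagen chain *COL6A2* (3.56). Its partner chain *COL6A1* was higher in SW480 (−2.47). HCT116 KO cells thus did not lack EMT factors altogether. The values of *SNAI1* and *SNAI2* refer to transcripts and say nothing of their proteins.

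The wider set held matrix genes, integrins and laminins. Of 48 tested members, 27 were higher in SW480 KO and 8 in HCT116 KO (median −1.53, background 24.4% and 17.1%). *TIMP3*, an inhibitor of matrix metalloproteinases, had 0.983, 0, 37.5 and 56.1 counts in HCT116 KO and 14573, 14215, 29212 and 24838 in SW480 KO, so that clones differed within both lines (log2 fold change −11.24, SE 1.25, adjusted p = 3.86e-05, limma). It lies within *SYN3* on the opposite strand. *LAMB1*, *ITGAV* and *MMP14* had log2 fold changes of −3.05, −2.19 and −3.45. In the other direction, *COL12A1*, a fibril-associated collagen, had 2446, 2997, 2100.2 and 3988 counts in HCT116 KO against 43.3, 37.6, 23.3 and 38.4 (6.29, adjusted p = 1.01e-08, limma), and the laminin chain *LAMA4* had a difference of 5.72. The type IV collagen chains split by locus, *COL4A5* and *COL4A6* being higher in HCT116 (5.11 and 5.38) and *COL4A2* in SW480 (−5.58).

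YAP and TEAD genes read out cell spreading and Hippo signalling. Of 32 tested, 23 were higher in SW480 KO and 2 in HCT116 KO (median −1.56, background 24.4% and 17.1%). *ANKRD1*, a standard YAP target, had 1.97, 0, 4.28 and 0 counts against 3458, 3758, 4720.2 and 5780.3. The coactivators *YAP1* (1975 ± 264 against 5880 ± 465 counts) and *WWTR1* (2816 ± 252 against 11017 ± 706) and the target *CCN2* (63.9 ± 16.9 against 1066 ± 508) were higher in SW480 as well. *AMOTL1*, a binding partner of YAP, was higher in HCT116 KO (2.57, adjusted p = 0.00869, limma), with 60.2 and 65.1 counts in SW480 clone 17 and 468 and 499 in clone 21.

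Of 36 tested TGFβ and BMP genes, 19 were higher in SW480 KO and 8 in HCT116 KO (median −1.45, background 24.4% and 17.1%). *SMAD4*, the shared SMAD of both branches, had 1503 ± 57.1 counts in HCT116 KO and 35.5 ± 6.81 in SW480 KO (log2 fold change 5.38, adjusted p = 1.89e-09, limma), and *SMAD2* on the same arm had 2834 ± 265 and 1294 ± 34.4 (1.13). *ID1* and *ID3*, immediate targets of BMP signalling, went in the same direction. *ID3* had 1391, 1088, 1599 and 1226 counts against 22.6, 43.1, 27.1 and 23.0 (5.50, adjusted p = 1.58e-08, limma). The ligands and receptors that were called were the other way, other than *ACVR2B*. *TGFB2* had 0, 1.88, 13.9 and 1.90 counts against 733, 775, 925 and 841, and *TGFBR2*, the type II receptor, had 464 ± 113 against 3922 ± 213. In both genes the lines were far apart in every library, and the values concern RNA only.

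Within the WNT pathway, 12 of 39 tested core components were higher in SW480 KO and 4 in HCT116 KO (median −0.43), a share of 41.0% that is near the background of 41.6%. *LEF1*, a TCF/LEF factor, had 0, 0, 9.63 and 0 counts in HCT116 KO and 261, 230.3, 408 and 396 in SW480 KO (log2 fold change −7.45, adjusted p = 5.62e-06, limma). *TCF7L2*, the main TCF/LEF factor of colon, was higher in HCT116 KO, at 1194, 1594, 1089 and 1599.6 counts against 788, 779, 929 and 934, but the difference of 0.66 (adjusted p = 0.00213, limma) was under the fold threshold. *JUP*, plakoglobin, the relative of β-CATENIN in desmosomes, had 9046, 8708, 10394 and 10459.6 counts against 2352, 2271, 4015 and 3712 (1.69, adjusted p = 1.62e-05, limma). The corepressors divided, *TLE2* being higher in HCT116 (3.36) and *TLE4* in SW480 (−6.92), as were the receptors *FZD1* (−2.54) and *FZD7* (−2.24).

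WNT target genes were still divided between the lines without β-CATENIN. Of 31 tested, 8 were higher in HCT116 KO and 10 in SW480 KO (median −0.31, background 17.1% and 24.4%). *AXIN2* (GRCh37 chr17:63524681-63557766, minus strand), the feedback inhibitor, had 12.8, 7.54, 15.0 and 6.66 counts in HCT116 KO and 357, 356, 455 and 591 in SW480 KO (log2 fold change −5.30, SE 0.29, adjusted p = 1.24e-07, limma). *APCDD1*, a membrane-bound WNT inhibitor, had 0, 0, 5.35 and 0 against 419, 458, 2108 and 2038, so that SW480 clones differed. *DKK1*, a secreted WNT inhibitor, went the other way with 13542, 16234, 17749.8 and 21289 counts against 601, 718, 927 and 1165 (4.36, adjusted p = 3.87e-08, limma). *MYC* (8783 ± 1280 against 3507 ± 239, 1.31) and *TERT* (67.1 ± 23.4 against 0.707 ± 0.896) were higher in HCT116 KO too. *LGR5*, a stem cell marker of the crypt, had at most 5.35 counts in any of these libraries and was not tested. In WT clones 18 of 33 tested targets were higher in SW480 and 5 in HCT116, at a median of −2.04, against 23.3% and 17.5% of all genes tested in WT clones. The interaction between line and genotype was called for 20 of 34 targets, of which 16 were shifted in favour of HCT116 in KO and 4 in favour of SW480, against 6.2% and 7.69% of all tested genes.

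Gut identity factors were divided with 8 of 22 higher in HCT116 KO and 7 in SW480 KO (background 17.1% and 24.4%). *HNF4G*, a nuclear receptor of enterocytes, had 146, 215, 125 and 161 counts in HCT116 KO and 0 in each SW480 KO library, at least a 57.5-fold difference. *SOX2*, a factor of foregut, had 1.05 ± 1.51 against 325 ± 124 counts. *CDX2*, the hindgut determinant, had 478, 421, 425 and 424 counts in HCT116 KO and 52.7, 65.1, 165 and 142 in SW480 KO (log2 fold change 2.19, adjusted p = 0.000173, limma). *HNF4A* (−3.34) rested on clones, with 15.7 and 8.48 counts in HCT116 clone 44 and 176 and 159.9 in clone 47.

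Only 12 of 47 genes of mature enterocytes and goblet cells passed the filter on low values, and all 12 were called, which the filter favours for genes high in a single line. *CA2*, carbonic anhydrase, had 2569, 2719.5, 2509 and 2156 counts in HCT116 KO against 1.88, 0.917, 0.934 and 6.72, a 952-fold difference, and the peptidase *DPP4* had 2830.1 ± 1078 against 24.7 ± 17.5. *TFF2*, a trefoil peptide of gastric mucus, had at most 1.07 counts in HCT116 KO and 248, 221, 407 and 364 in SW480 KO. *HOX* genes mark position along the body axis. Of 32 tested, 15 were higher in SW480 KO and 1 in HCT116 KO (median −0.85, background 24.4% and 17.1%). *HOXD10* had 1.04 ± 1.52 against 177 ± 11.6 counts, and *HOXA9*, the exception, was higher in HCT116 by 1.07 (adjusted p = 0.0202, limma) with 647 and 678 counts in SW480 clone 17 and 1949.7 and 1737 in clone 21. This call was lost without 47A (1.00), 47B (0.97), 17A (0.82) or 17B (0.84).

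Interferon-stimulated genes were higher in SW480 KO for 25 of 36 tested members and in HCT116 KO for 3 (median −1.67, background 24.4% and 17.1%). In WT clones 14 of 34 tested members were higher in SW480 and 9 in HCT116 (median −0.65, background 23.3% and 17.5%). *GBP1* (GRCh37 chr1:89517565-89531043, minus strand), an interferon-induced GTPase, had 0.983, 0.942, 1.07 and 0 counts in HCT116 KO and 1046, 1095, 760.1 and 796 in SW480 KO, at least a 312-fold difference. Its mean in SW480 WT was 11.3. *BST2*, tetherin, had 10.9 ± 7.54 against 5206 ± 998 counts. *ISG15* and *IFIT1* did not separate the lines (0.08 for each), and *HERC5*, an ISG15 ligase, was higher in HCT116 KO with 416 ± 50.1 against 40.8 ± 17.5 counts (3.40, adjusted p = 1.16e-06, limma). The set is not one block, since members of the same response were at opposite ends.

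Of 24 tested genes of MHC class I presentation, 12 were higher in SW480 KO and 0 in HCT116 KO (background 24.4% and 17.1%). At an unadjusted p under 0.05 in limma 1 gene was higher in HCT116 KO, *CALR* by 0.49, and edgeR and DESeq2 also called 0. *PSMB8*, a subunit of the immunoproteasome, had 3.93, 1.88, 3.21 and 0 counts in HCT116 KO and 1915, 1990.0, 2578 and 2532 in SW480 KO (log2 fold change −9.65, adjusted p = 3.26e-08, limma). Its partner *PSMB9* lies against it on the other strand and had −5.07. *HLA-B* (793 ± 195 against 5626 ± 1404) and *B2M*, the light chain (10576 ± 1171 against 21693 ± 4673, −1.02), were higher in SW480 too, whereas the call of *B2M* was lost without 47A (−0.94), 21A (−0.93) or 21B (−0.92), and *TAP1* (−0.46) and *TAP2* (0.09) were not called. *HLA* genes share sequence, so the split of reads among them is uncertain.

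Among DNA mismatch repair genes, *MSH3*, a subunit that recognises insertion and deletion loops, had 111 ± 9.74 counts in HCT116 KO against 882 ± 111 in SW480 KO (log2 fold change −2.98), and *MLH3* had 334 ± 47.3 against 898 ± 81.9 (−1.43). Both were called higher in SW480 KO. Of 12 tested mismatch repair genes 9 were not called, and the share called was 25%, below the 41.6% of all tested genes. The median log2 fold change of the list was 0.007.

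Genes of growth arrest and stress were called in both directions. Those named here are examples and do not show which line had more calls. *MDM2*, a ubiquitin ligase (log2 fold change 1.61), *BTG2*, an antiproliferative factor (2.05), and *FDXR*, a mitochondrial reductase (1.70), were higher in HCT116 KO, as was *CMBL*, a hydrolase, with 2401, 2453, 1183 and 1471 counts against 282 ± 30.7 (2.67). The receptor *EDA2R* was higher in SW480 KO, with 157, 187, 103 and 111 counts against at most 1.07. *CDKN1A*, the inhibitor p21, had 4717, 5281, 7441 and 7906 counts against 3713, 4293, 3040.3 and 3668, which did not overlap but differed by 0.76, under the threshold.

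Among cell cycle genes, 6 of 40 G1/S genes were higher in HCT116 KO and 7 in SW480 KO, and of 42 G2/M genes 3 and 5. These are shares of 32.5% and 19.0%, below the 41.6% of all tested genes. *MKI67*, the proliferation marker, had 9577, 9618, 9597 and 15834 counts in HCT116 KO and 14107, 14626, 5117 and 6996 in SW480 KO. The lines overlapped (0.23, adjusted p = 0.546, limma), and the SW480 clones did not, clone 17 being above clone 21. The sign of the line difference turned to −0.055 without SW480 KO 21A and to −0.40 without clone 21. *ANLN* and *TOP2A* were higher in SW480 (−1.47 and −1.39), in clone 17 more than in clone 21, while *CDT1*, a replication licensing factor, was 3.99-fold higher in HCT116 KO. Cyclin D2, *CCND2*, had 748 ± 132 counts in SW480 KO and 0 in each HCT116 KO library other than 47A, with 5.35. In WT clones 14 of 42 G2/M genes were higher in SW480 and 0 in HCT116 by limma, edgeR and DESeq2, with 7 at an unadjusted p under 0.05 in limma. Over all genes tested in WT clones, 23.3% were higher in SW480 and 17.5% in HCT116. *BIRC5*, survivin, was higher in HCT116 KO (1.19, adjusted p = 2.82e-05, limma).

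Of 33 tested senescence-associated genes, 18 were higher in SW480 KO and 4 in HCT116 KO (median −1.43, background 24.4% and 17.1%). Among those higher in SW480 were the binding proteins *IGFBP4*, *IGFBP7*, *IGFBP3* and *IGFBP5*. *IGFBP7* had 0.979 ± 0.779 against 5030.5 ± 1256 counts, *IGFBP3* 64.3 ± 64.9 against 8063 ± 5923 (log2 fold change −7.36, adjusted p = 9.99e-05, limma) and *IGFBP5* at most 1.07 against 165 ± 128. *CDKN2A*, the locus of p16 and ARF, had 1563, 1729, 3789 and 3921 counts in HCT116 KO and 4166, 4265, 6978 and 6849 in SW480 KO (−1.10, adjusted p = 0.011, limma), with a clone difference in both lines. In WT clones 14 of 27 tested members were higher in SW480 and 6 in HCT116 (background 23.3% and 17.5%). The call of *CDKN2A* was lost without 44A (−0.87), 44B (−0.92), 21A (−0.98) or 21B (−0.99). The 4 members higher in HCT116 KO were the growth factors *FGF2*, *AREG* and *EREG* and the chemokine *CXCL2*. *FGF2* had 1577, 1988, 1499 and 1863 counts against at most 0.960, although it overlaps *NUDT6* on the other strand.

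In the MAPK and EGF family list, 13 of 34 genes were higher in SW480 KO and 10 in HCT116 KO (background 24.4% and 17.1%). The ligands *AREG* (10272, 7946, 12302 and 9929.6 counts against 149.6, 159.6, 190.5 and 206, log2 fold change 5.83, adjusted p = 1.27e-09, limma) and *EREG* (22539 ± 3300 against 971 ± 364) were higher in HCT116 KO. Their receptor *EGFR* was higher in SW480 KO (−2.25), and so were the feedback genes *DUSP6* (586 ± 128 against 8243 ± 2754 counts, −3.77), *SPRY2* (−2.88) and *SPRY4* (−2.12), while *DUSP5* was higher in HCT116 KO (2.40). Of 36 genes of xenobiotic metabolism, 14 were higher in SW480 KO and 10 in HCT116 KO, against the same background. The export pump *ABCC2* had 1011, 1122, 1143 and 1442 counts in HCT116 KO and 2.82, 3.67, 0.934 and 3.84 in SW480 KO, a 419-fold difference, and the dehydrogenase *ALDH3A1* had 62.9, 54.6, 20.3 and 12.4 against 1579, 2005, 4614 and 6174 (−6.60), where the clones of each line parted. Of 12 cancer-testis genes that passed the filter, out of 44, 6 were higher in HCT116 KO and 5 in SW480 KO (background 17.1% and 24.4%). The filter favours such calls for genes high in a single line, so their number says little about the list.

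The differences between the lines were largely shared with WT clones, which are separate libraries. In WT clones 6719 of 16470 tested genes (40.8%) were called. Among 15721 genes tested in both genotypes, 4700 were called in the same direction, which is 74.7% of the 6294 KO calls and 75.9% of the 6195 WT calls. Only 89 were called in opposite directions. Across genes, not independent of each other, the KO and WT differences had a Pearson correlation of 0.893, given as a description. Among KO calls higher in HCT116, 1948 of 2698 (72.2%) were also called in WT and 711 were not, of which 637 had the same sign. Among those higher in SW480, 2752 of 3596 (76.5%) were also called in WT and 794 were not, of which 664 had the same sign.

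A call in KO and none in WT does not show that the difference itself changed, so it was tested as an interaction over 16 libraries. Of 17796 genes, 2472 (13.9%) passed. This fit took the libraries of a clone as independent, though they correlated within clones (consensus correlation 0.418, limma). With clone as a random effect 1807 genes were called. The counts that follow are of the fit without this term. Of the KO calls without a call in WT, the interaction was called in the direction of the KO difference for 146 of 711 genes higher in HCT116 and for 283 of 794 higher in SW480. An interaction in favour of a line is a shift towards it in KO compared with WT, whichever line is higher. The epithelial list held 12 interactions in favour of HCT116 in KO and 8 in favour of SW480, interferon-stimulated genes 5 and 15, and MHC class I genes 0 and 7, against 1104 and 1368 (6.2% and 7.69%) over all tested genes. *HOX* genes held 7 and 0. For both counts of 0, edgeR and DESeq2 also called 0 and limma gave 0 at an unadjusted p under 0.05.

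The genes with the largest interaction among those called in KO and not in WT were these. In favour of HCT116, *RETREG1*, a receptor of ER-phagy, had 253, 256, 213 and 228 counts in HCT116 KO and 5.64, 6.42, 7.47 and 2.88 in SW480 KO, against WT means of 189.8 and 123 (interaction 4.61, adjusted p = 5.81e-09, limma). *CXADR*, a tight junction adhesion protein and virus receptor, had 1648 ± 234 against 53.1 ± 24.7 in KO and 1547 against 1039.8 in WT (4.45, adjusted p = 7.16e-08, limma). *PCSK6*, a proprotein convertase, and *RAB11FIP4*, a Rab11 effector, had interactions of 3.94 and 3.81. For each of these 4 genes SW480 KO had the lowest mean of the 4 groups.

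In favour of SW480, *EHF* had 7.86, 5.65, 2.14 and 1.90 counts in HCT116 KO and 485, 432, 538 and 573 in SW480 KO, against WT means of 1015 and 836 (interaction −6.93, adjusted p = 5.7e-09, limma). Here the HCT116 KO clones were the low group of the 4. *EBI3*, a cytokine subunit, had 5.31 ± 2.97 against 224 ± 58.9 in KO and 37.3 against 18.6 in WT (−6.46). *CSMD2*, a large transmembrane protein, had 14.8 ± 14.8 against 813 ± 33.0 in KO and 11.6 against 13.8 in WT (−5.91), and *IL1RAPL1*, a synaptic receptor, 2.67 ± 2.68 against 222 ± 112 in KO and 30.8 against 35.7 in WT (−5.71). For the latter 3 the SW480 KO clones were the high group.

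The line difference turned around for the 89 genes above. *NOTUM* (GRCh37 chr17:79910383-79919716, minus strand), a secreted WNT deacylase and WNT target, had 82.5, 54.6, 104 and 68.5 counts in HCT116 KO and 1.88, 0.917, 3.74 and 8.64 in SW480 KO, whereas the WT means were 116 and 1285 (KO 4.26, WT −3.51, interaction 7.77, adjusted p = 1.47e-08, limma). *CREB3L3*, a hepatic and intestinal transcription factor, had 6.13 ± 1.29 against 171 ± 106 counts in KO and 21.6 against 0.734 in WT (interaction −8.33). *GPR39*, a zinc-sensing receptor, had 106, 116, 86.7 and 70.4 against 323, 335, 337 and 378 in KO and 49.2 against 0.474 in WT (−6.99, adjusted p = 1.66e-09, limma). Among the fixed examples, *CDX2* was higher in HCT116 KO (2.19) and lower in HCT116 WT (−0.83, under the fold threshold), with an interaction of 3.02 (adjusted p = 2.46e-05, limma).

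Line differences also followed chromosome arms, of which 41 had at least 50 tested genes. The median log2 fold change was highest for 18q (0.93, 78 of 165 genes called higher in HCT116 KO) and 8q (0.71), followed by 19p (0.49) and 17q (0.45). It was lowest for Xq (−0.71), 7q (−0.70), Xp (−0.64), 20q (−0.61), 7p (−0.57) and 21q (−0.53). In WT clones 18q had a median of 1.18 and 7q one of −0.62, and no arm differed between KO and WT by more than 0.31. *SMAD4* and *SMAD2*, with *DSC2* and *DSG2*, lie on 18q. The difference of *SMAD2* (1.13) was close to the median of the arm, while those of *SMAD4* (5.38) and *DSC2* were far above it, and the part of the arm in them was not tested. DNA copy number was not analysed here.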

How the data were processed

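RNA of *CTNNB1* WT and KO clones of 3 CRC lines was sequenced with the TruSeq RNA Sample Prep Kit v2, which does not keep the strand. The authors aligned reads to GRCh37 with STAR 2.7.5b, counted them per gene with featureCounts 2.0.1 and divided them by DESeq2 size factors (DESeq2 2.11.40.6), as the submitters' processing notes and the methods state. The deposited signal is therefore a normalized read count per Ensembl gene. Each of the 24 libraries has its own table of 58051 gene IDs, of which 55604 (95.8%) had a symbol in GENCODE release 44 lifted to GRCh37. *PECAM1* had no match there. Dividing by the step of 1 read gave whole reads for 100% of values within 0.05 reads. Totals were 22297049 to 29068378 reads per library. 3 further tables held the authors' own KO to WT comparisons (fold changes and p-values) and were not used.

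The 4 HCT116 KO libraries were compared with the 4 SW480 KO libraries by limma 3.58.1 (R 4.3.3, trend and robust) on log2(normalized count + 1), with Benjamini-Hochberg adjustment over all tested genes. No clone or round term was fitted. The same fit was made in WT clones, and an interaction over 16 libraries tested whether the KO and WT differences differed. Log2 fold changes of low genes are understated by the pseudocount. As alternatives, the recovered reads were tested with edgeR 4.0.16 and DESeq2 1.42.0, and scaling, pseudocount (0.1 and 5), filters, clone handling and left-out libraries or clones were varied. DNA-level data were not analysed here.

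The members and gene lists were chosen with earlier results of these data known. Named genes were the 8 protein-coding genes with the largest called difference in each direction and non-overlapping libraries (mean of at least 500 in the higher line), the called gene with the largest difference in each direction of each list (mean of at least 100), a set of anchor genes whatever their value, the 4 genes in each direction with the largest interaction among those called in KO and not in WT, and the 3 with the largest turn-around. Sequences were taken from RefSeq promoters of GRCh38.p14. Some named genes and lists are not reported here.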

Additional observations from a re-analysis of the deposited data

Results flagged for a closer look

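The highest and the lowest library were tested in 141 groups of 4 KO libraries of a line with a named gene above 3 reads. In 10 groups a library stood apart from the rest by Dixon's test at the 95% level, and in each it was the highest. For normally distributed values chance flags either end in about 1 in 20 groups, so the rate for the highest library alone is lower. A group with reads in 1 library alone always meets the rule, as for *CADM1*, *LEF1*, *APCDD1*, *CCND2* and *LGR5* in HCT116 KO, so that rate does not hold there. In 6 of the 10 groups the highest library was HCT116 KO 47A, the library with 35449 genes above 0, itself far from the other 3 HCT116 KO libraries. The values there were 6.42 counts for *CADM1*, 9.63 for *LEF1*, 13.9 for *TGFB2*, and 5.35 each for *APCDD1*, *CCND2* and *LGR5*. The others were *CMBL* in SW480 KO 17A with 328.3 counts, *CA2* in SW480 KO 21B with 6.72, *CDX2* in HCT116 KO 44A with 478.5 and *MKI67* in HCT116 KO 47B with 15834.

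For 34 named genes the difference between the lines in KO clones itself differed from that in WT clones (limma interaction, adjusted p under 0.05 and a difference over 1), in favour of HCT116 in KO for 11 and of SW480 for 23. These directions are shifts compared with WT and do not name the higher line. *LEF1* and *APCDD1*, listed for HCT116, stayed far higher in SW480 KO (KO −7.45 and −9.23, WT −11.82 and −15.25). *AREG*, *COL12A1*, *COL6A2*, *ABCC2*, *HERC5*, *CMBL* and *TCF7L2*, listed for SW480, had higher means in HCT116 KO. In favour of HCT116 were *NOTUM* (7.77), *APCDD1* (6.02), *RETREG1* (4.61), *CXADR* (4.45), *LEF1* (4.37), *PCSK6* (3.94), *RAB11FIP4* (3.81), *CDX2* (3.02), *DSC2* (1.98), *FGF2* (1.84) and *EPCAM* (1.45). In favour of SW480 were *CREB3L3* (−8.33), *TIMP3* (−8.21), *GPR39* (−6.99), *EHF* (−6.93), *EBI3* (−6.46), *GBP1* (−5.97), *CSMD2* (−5.91), *IL1RAPL1* (−5.71), *TGFB2* (−4.99), *TFF2* (−3.93), *AREG* (−3.07), *SAA1* (−2.89), *SPARC* (−2.86), *COL12A1* (−2.68), *ALDH3A1* (−2.63), *COL6A2* (−2.63), *CCND2* (−2.62), *PSMB8* (−2.18), *TCF7L2* (−2.01), *VIM* (−1.999), *ABCC2* (−1.76), *CMBL* (−1.25) and *HERC5* (−1.04). Of 48 matrix genes, 5 had an interaction in favour of HCT116 and 14 of SW480, and of 34 mesenchymal genes 1 and 8. Over all tested genes the shares were 6.2% and 7.69%. The interaction was not called with clone means for *TIMP3*, *SPARC*, *COL12A1* and *COL6A2* (adjusted p = 0.0634, 0.127, 0.102 and 0.0683, limma), nor in a test against a log2 fold change of 1 for *VIM* (adjusted p = 0.328, limma treat). With edgeR the interaction was not called for *APCDD1*, *GBP1*, *TFF2*, *DSC2* and *SAA1* (adjusted p = 0.252, 0.204, 0.857, 0.184 and 0.259). The same held for *SPARC*, *CCND2*, *FGF2* and *ABCC2*. In all of these genes 1 line was near 0 counts in both genotypes. A pseudocount of 0.1 lost the calls of *FGF2* (0.77), *SAA1*, *SPARC*, *PSMB8*, *CCND2* and *ABCC2*. Clone as a random effect lost those of *HERC5*, *PSMB8*, *CCND2*, *FGF2*, *ABCC2* and *ALDH3A1*. Of these 34 calls, 15 were kept under every alternative, and those of *ABCC2*, *ALDH3A1*, *CCND2* and *HERC5* were lost on leaving out any of 6, 9, 12 and 10 single libraries, with values of −1.35 to −1.71, −2.15 to −2.67, −2.21 to −2.71 and −0.78 to −1.05 at adjusted p over 0.05. The causes were not tested.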

How the results depend on the processing

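The 6854 calls between the KO lines became 4117 when a gene needed at least 10 counts in every library, which removes genes that are off in one line, and 4297 in a test against a log2 fold change of 1 (treat). The parts higher in HCT116 were then 1829 and 1619 and those higher in SW480 2288 and 2678. Filtering in every library also gave 3969 WT calls, 1279 interactions, 2584 genes called in KO and WT in the same direction and 241 called list members in place of 378, and treat gave 852 interactions and 2981 shared calls. Clone means gave 1263 interactions, while 6451 (94.1%) of the KO calls were also called with them and 6556 (95.7%) without HCT116 KO 47A. Leaving out 1 library gave 6992 to 7210 KO calls (2772 to 2992 higher in HCT116, 4027 to 4244 in SW480), 6907 to 7061 WT calls, 2331 to 2708 interactions, 4724 to 4784 shared calls and 374 to 384 list members, and leaving out 1 clone gave 7118 to 7407 KO calls. The filter asked for fewer libraries in these fits, so more genes were tested. In KO these were 16840 to 16970 genes without 1 library and 17453 to 17501 without 1 clone, in place of 16491, so the counts are not set against an unchanged filter. The count of genes at the floor in HCT116 KO was 99 with a mean of at least 200 counts in SW480 and 164 to 304 on leaving out a library, the highest without 47A, and in SW480 KO it was 96 to 112. The libraries of a clone came from rounds A and B, and the differences between rounds correlated at −0.06 to 0.25 between clones, over 0.1 in 3 of 6 pairs. With the round as a replicate block the paired fits gave 6840 KO calls and 2457 interactions, and no named gene gained or lost its call. Among 1828 alternative values of 78 named genes, 1785 kept direction and call, 40 lost the call (among them *AMOTL1*, *ANLN*, *B2M*, *BIRC5*, *CDKN2A*, *COL1A1* and *HOXA9*), 1 gained it (*CDKN1A*) and 2 changed sign, both of *MKI67* (−0.055 without SW480 KO 21A, in a range of −0.055 to 0.45 on leaving out 1 library, and −0.40 without clone SW480 KO 21). Of 1427 WT and 1199 interaction values, 15 and 119 lost the call, in 3 and 19 genes. Among the lists whose counts are given, the line with more calls changed under some alternatives for G1/S genes (6 in HCT116 and 5 in SW480 in 5 alternatives, edgeR and DESeq2 among them), G2/M genes (4 and 3 without clone SW480 KO 17), cancer-testis genes (6 and 7 with no filter) and other cell types (1 and 0 with the filter in every library). The causes were not tested. With 2 clones per line, differences between single clones and between lines are limited in precision, and 25012505 to 29028157 reads per KO library limit values of a few counts.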
